A study of Homo sapiens with 32 samples.

Results

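The genes described here are 44 genes listed for the absorptive cell of the intestine: 8 digestive enzymes and alkaline phosphatases, 9 membrane transporters, 2 carriers of lipid and retinol, 9 proteins of the microvillus, 6 transcription factors, 8 keratins and surface proteins of the epithelium, and 2 markers of intestinal stem cells. They were taken as a list of gene symbols. All 44 were found among the 60107 rows of the count table, 30677 of which had at least 1 count. The data are QuantSeq 3′ RNA sequencing of Caco-2 cells, a line from a human colon adenocarcinoma that takes on features of small intestinal enterocytes once it is confluent.

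The 32 libraries came from cl.21 cells, e.v. cells and WT cells. By the study's methods, cl.21 and e.v. cells carry an inducible Cas9 delivered by lentivirus. Here cl.21 was taken as the clone in which HIF1A, the oxygen-regulated transcription factor subunit, was disrupted, and e.v. as the cells with an empty guide vector. As 1 clone stands for the edit, what the edit did and what the clone carried besides cannot be told apart. Each line was measured in co-culture and in monoculture in HoxBan and in 2D, with 3 libraries per group and 4 for WT in 2D, which makes 28 libraries in 9 groups. In HoxBan, cells on a coverslip face an agar medium, which in co-culture holds the anaerobic gut bacterium F. prausnitzii and in monoculture holds no bacteria. The labels say no more of 2D than its name. The other 4 libraries were WT cells, 1 each in monoculture with YCFAinul or YCFAmuc and with Poop + YCFAinul or Poop + YCFAmuc. Whether the libraries of 1 group are separate cultures is not given in the labels, so p-values measure the spread between libraries, which may be technical.

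Enterocytes mature as cells leave the intestinal crypt. Transcription factors of the CDX, HNF4 and GATA families turn on genes for digestive enzymes and nutrient transporters, and the apical surface becomes packed with microvilli whose actin bundles are held by villin, espin and plastin-1 and joined at their tips by protocadherins. Stem cell genes such as LGR5 and ASCL2, which depend on WNT signalling, are off in mature enterocytes.

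Libraries held 4144373 to 6686797 counts. Levels are CPM, counts per 1e+06 after scaling by TMM, a normalisation that balances the bulk of genes between libraries. Because the reads are 3′ tags, CPM needs no correction for transcript length. The share of counts in mitochondrial genes had a median of 14.9% in co-culture (7.79% to 23.6%), 11.3% in monoculture (6.36% to 23.3%) and 6.05% in 2D (4.49% to 17.1%), so it moved with the culture. Epithelial genes were high in all 28 libraries, with EPCAM at 1079.9 to 2140.2 CPM, CDH1 at 486 to 1002 CPM and VIL1 at 241 to 380.2 CPM. Some genes that define other cells were close to absent over the 28 libraries, with 6 counts of MUC2, 4 of ATOH1, 5 of CHGA, 1 of DEFA5 and 3 of PTPRC. Other genes of the same marker lists were present, with AGR2 (goblet cells) at 105 to 1303 CPM, ZG16 (goblet cells) at 0.611 to 40.0 CPM, LYZ (Paneth cells) at 4.57 to 44.4 CPM, CHGB (enteroendocrine cells) at 0 to 5.94 CPM and COL1A1 (fibroblasts) at 12.2 to 41.4 CPM. FABP2, a defining fatty acid carrier of small intestinal enterocytes, had no count in 16 of 28 libraries and at most 1.10 CPM, so the enterocyte label was only partly met. In bulk RNA, fewer cells of a type and less RNA per cell cannot be told apart.

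Of the 44 genes, 33 passed edgeR's filter on low counts and were tested among 12849 genes. A gene was called when its p, adjusted by the Benjamini-Hochberg method over all genes tested, was under 0.05 in edgeR's quasi-likelihood test. The 11 genes below the filter held few counts over 28 libraries: the disaccharidases MGAM (74 counts) and TREH (5), the alkaline phosphatase ALPP (14), the fructose transporter SLC2A5 (116), the sodium-proton exchanger SLC9A3 (1), the amino acid transporter SLC6A19 (19), FABP2 (23), the microvillar myosin MYO7B (28), the protocadherin CDHR2 (62), the transcription factor CDX1 (5) and the galectin LGALS4 (46). Changes in most of these genes were not detectable at this depth. With no filter, edgeR called 1 of the 11 in 1 comparison, CDHR2, lower in e.v. than in WT cells in HoxBan (adjusted p = 0.00462), with 1, 0 and 0 counts in monoculture and 0, 0 and 1 in co-culture in e.v. cells, against 3, 4 and 2 in monoculture and 6, 3 and 8 in co-culture in WT cells. These counts leave MGAM, CDX1 and LGALS4, which mature enterocytes or colonocytes express, at the floor of the assay in every line.

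HoxBan monoculture was set against 2D first, to see how the genes differed between these cultures. What else differed between them, such as medium or time, is not given in the labels. Over the 3 lines, all 5 transcription factors tested fell, both stem cell markers fell, and the microvillus genes were split, with EZR and PLS1 up and ESPN and MYO1A down. In all, 2 of 33 members were called higher, where 21.4% of all genes tested were, and 9 of 33 lower, where 23.3% of all genes tested were. The lower share is near that of all genes, and the calls fell in 3 of the 7 roles. The median log2 fold change was -0.13 over the members and -0.01 over all genes tested. The other 22 members, which include every enzyme and transporter tested, did not reach an unadjusted p of 0.05. Of all 12849 genes tested, 6624 had an unadjusted p under 0.05.

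**Figure D1:**
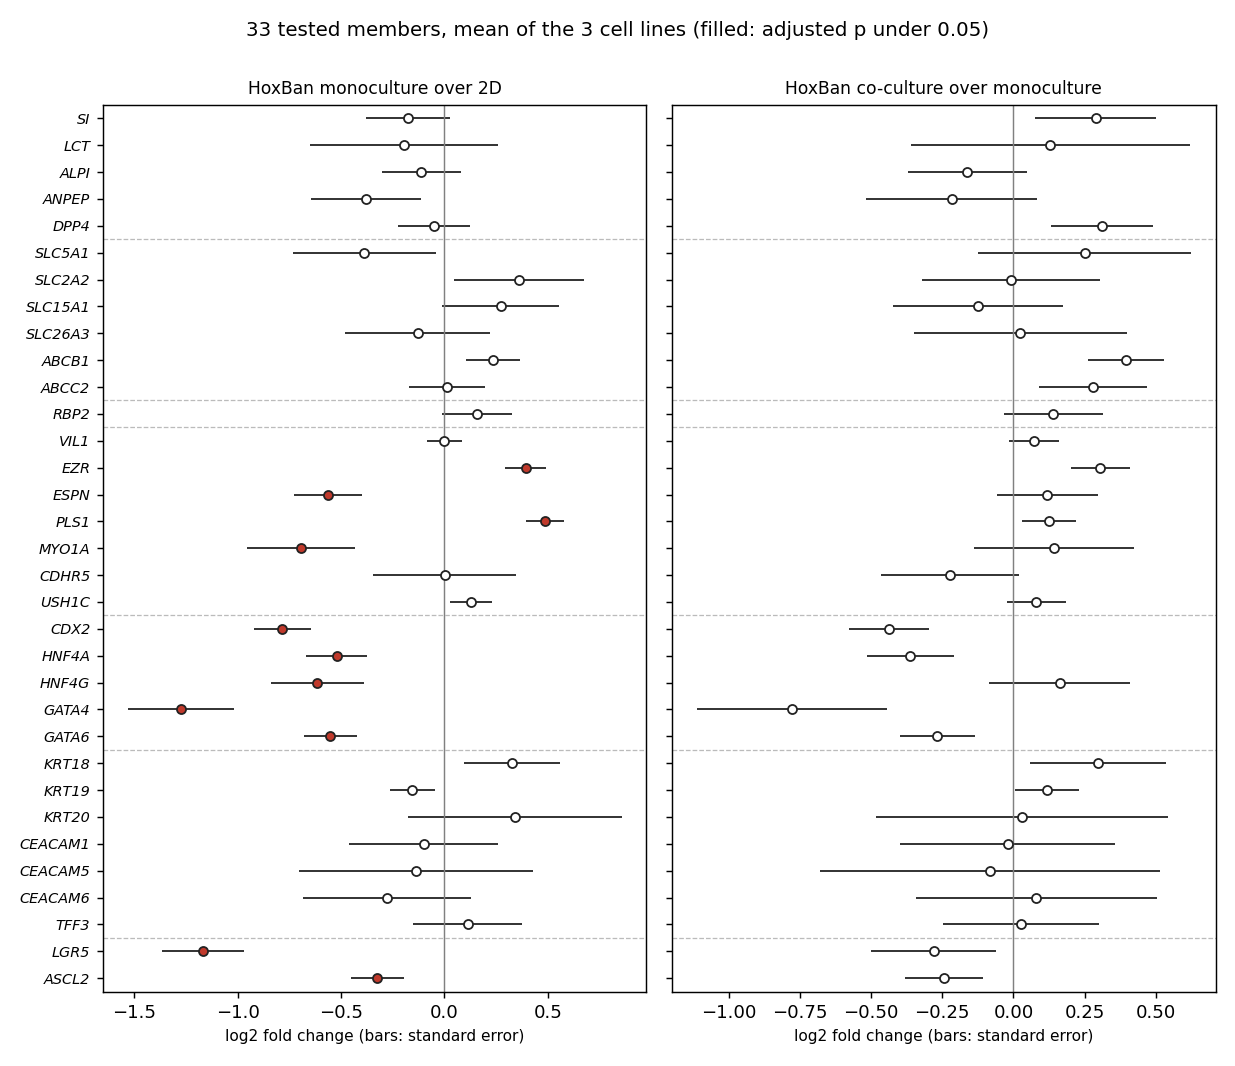
Log2 fold change of the 33 tested genes, averaged over the 3 lines, for HoxBan monoculture over 2D (left) and HoxBan co-culture over monoculture (right). Bars are standard errors, filled points passed an adjusted p of 0.05 in edgeR, and dashed lines separate the roles. The left panel holds 11 filled points, from -1.28 for GATA4 to 0.49 for PLS1, and the right panel holds 0.

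CDX2 is the homeobox factor that specifies intestinal identity. In cl.21 cells it had 90.8, 93.5 and 95.8 CPM in monoculture, against 149, 202 and 179.6 CPM in 2D. In e.v. cells it had 109, 102 and 61.8 CPM in monoculture, against 158, 123 and 197 CPM in 2D. WT cells had 136, 157 and 95.5 CPM in monoculture, against 220.4, 185, 177 and 195 CPM in 2D. In each line all monoculture libraries lay below all 2D libraries. The log2 fold change over the 3 lines was -0.78 (SE 0.14, edgeR adjusted p = 4.25e-05).

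HNF4A is a nuclear receptor that activates enterocyte genes. It had 95.5, 109 and 116 CPM in monoculture in cl.21 cells, against 155, 149 and 123 CPM in 2D. In e.v. cells the libraries had 117, 84.3 and 64.2 CPM in monoculture, against 139, 138 and 168 CPM in 2D. WT cells had 139, 159 and 88.4 CPM in monoculture, against 252, 119, 176 and 118 CPM in 2D. The cultures did not overlap in cl.21 and e.v. cells and overlapped in WT cells. Over the lines the log2 fold change was -0.52 (SE 0.15, edgeR adjusted p = 0.00518). Its paralog HNF4G was low, at 1.41 to 4.66 CPM in 9 monoculture libraries (median 3.03) and 1.83 to 6.01 CPM in 10 libraries in 2D (median 4.32), and fell by 0.61 on the log2 scale (SE 0.23, edgeR adjusted p = 0.028). That call was lost when any 1 of 5 libraries was left out (cl.21 2D 1 and 2, cl.21 monoculture 7, WT monoculture 19 or WT 2D 12), with log2 fold changes of -0.58 to -0.52 among them.

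GATA4 and GATA6 are zinc finger factors, and GATA4 in mice marks the proximal small intestine. GATA6 had 39.1 to 61.9 CPM in the 9 monoculture libraries (median 48.1), against 62.5 to 86.6 CPM in the 10 libraries in 2D (median 70.8). Those ranges did not overlap in any line or across lines. GATA6 fell by 0.55 on the log2 scale (SE 0.13, edgeR adjusted p = 0.000846), and its span overlaps that of GATA6-AS1 on the other strand, which held 1287 counts.

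GATA4 was far lower than GATA6. It had 2.09, 1.16 and 2.06 CPM in monoculture in cl.21 cells, against 4.72, 7.43 and 4.57 CPM in 2D. In e.v. cells it had 0.404, 1.85 and 1.42 CPM in monoculture, against 3.44, 2.34 and 5.18 CPM in 2D. Levels in WT cells were 2.18, 2.83 and 2.24 CPM in monoculture, against 2.93, 4.89, 2.95 and 3.65 CPM in 2D. Within each line the cultures did not overlap. The log2 fold change of -1.28 (SE 0.26, edgeR adjusted p = 0.000211) was the largest fall among the tested members in this comparison.

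**Figure D2:**
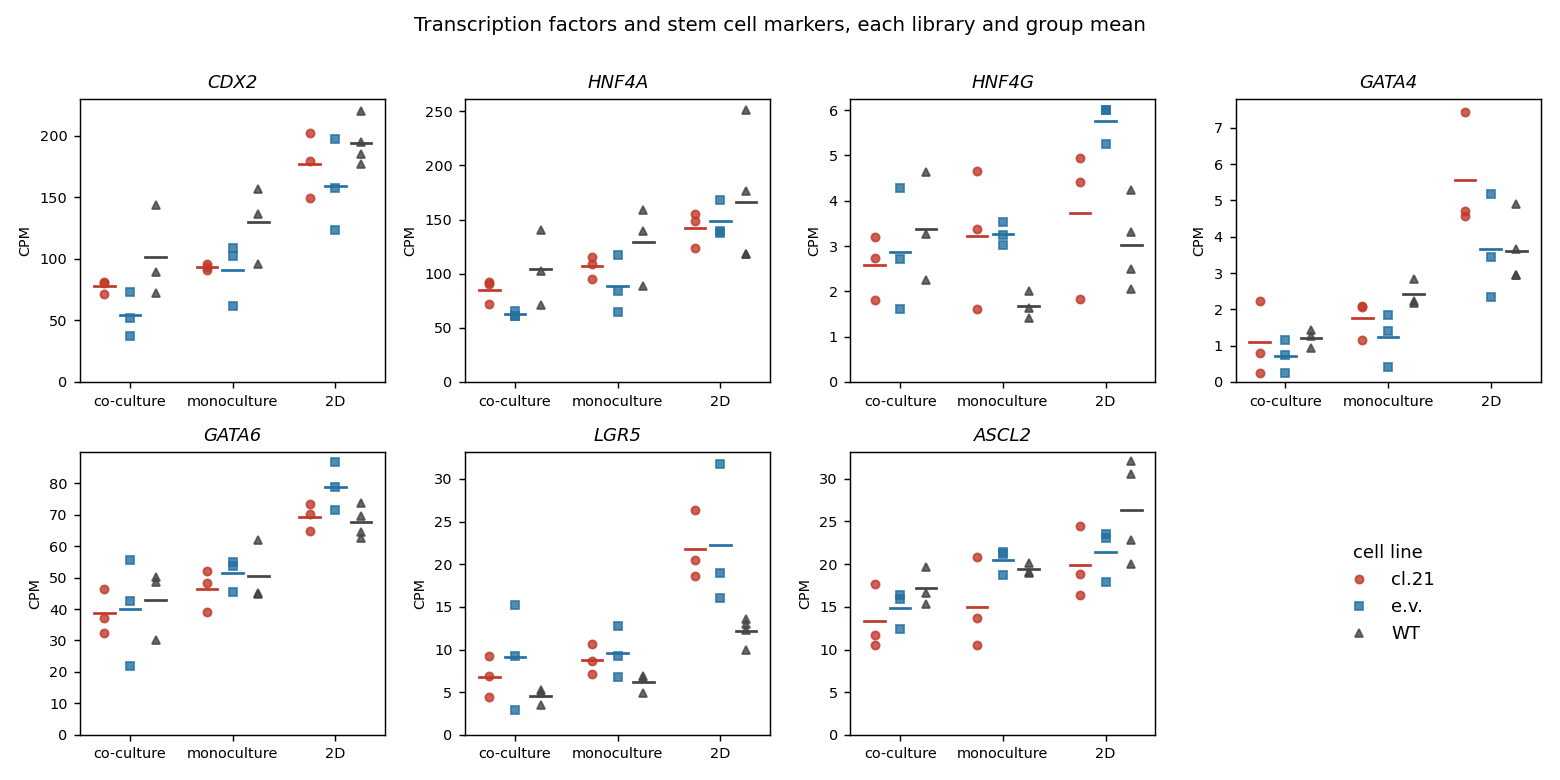
CPM of the 5 tested transcription factors and the 2 stem cell markers in each library, by culture (co-culture, monoculture, 2D) and line (red circles cl.21, blue squares e.v., grey triangles WT), with bars at group means. GATA6 lay at 39.1 to 61.9 CPM in monoculture and at 62.5 to 86.6 CPM in 2D, with no overlap, and LGR5 reached 31.7 CPM in 2D.

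The stem cell markers fell along with the factors of enterocyte identity. LGR5, a receptor that amplifies WNT signals, had 10.6, 7.17 and 8.63 CPM in monoculture in cl.21 cells, against 20.6, 18.6 and 26.3 CPM in 2D. In e.v. cells it had 12.7, 9.27 and 6.84 CPM in monoculture, against 19, 31.7 and 16 CPM in 2D. WT cells had 6.90, 4.95 and 6.72 CPM in monoculture, against 13, 13.6, 9.94 and 12.3 CPM in 2D. The cultures did not overlap in any line, and the log2 fold change was -1.17 (SE 0.20, edgeR adjusted p = 2.74e-05). LGR5 overlaps TSPAN8 on the other strand, which held 17465 counts against 1913 for LGR5, and the counting is not stated to use strand. ASCL2, a WNT-driven stem cell factor, had 10.5 to 21.4 CPM in monoculture (median 19.1) and 16.4 to 32 CPM in 2D (median 22.9). Its log2 fold change of -0.32 (SE 0.13, edgeR adjusted p = 0.0427) was lost when any 1 of 13 of the 19 libraries was left out, with values of -0.42 to -0.26 over all 19.

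Among microvillus genes, EZR encodes ezrin, which ties actin to the apical membrane. It had 288, 282 and 299.5 CPM in monoculture in cl.21 cells, against 196, 228 and 219.5 CPM in 2D. The e.v. libraries had 277, 338 and 409.5 CPM in monoculture, against 244 to 292 CPM in 2D. WT cells had 242, 330.4 and 393 CPM in monoculture, against 231, 241, 241 and 266 CPM in 2D. Only cl.21 cells showed no overlap between the cultures, and the log2 fold change over the lines was 0.39 (SE 0.10, edgeR adjusted p = 0.00236).

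PLS1, plastin-1, bundles the actin of the microvillus core. It had 35.2 to 60.7 CPM in monoculture (median 51.9), against 28.5 to 45.7 CPM in 2D (median 34.5). In cl.21 and e.v. cells every monoculture library lay above every 2D library, and the log2 fold change over the lines was 0.49 (SE 0.093, edgeR adjusted p = 0.000117). ESPN, espin, another bundler, had 5.78 to 14.6 CPM in monoculture (median 9.09), against 10.4 to 19.7 CPM in 2D (median 13.9), and fell by 0.56 on the log2 scale (SE 0.17, edgeR adjusted p = 0.00705). VIL1, villin, did not pass the test, at 241 to 371 CPM in monoculture (median 315) and 269 to 350.4 CPM in 2D (median 294), with an SE of 0.085 around a log2 fold change of 0.00. Of the 3 tested actin bundlers, then, 1 rose, 1 fell and 1 did not pass the test.

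MYO1A, the myosin that ties the actin core to the membrane, had 3.19 to 10.8 CPM in monoculture (median 6.75), against 5.01 to 36.5 CPM in 2D (median 10.4). The highest value, 36.5 CPM, came from WT 2D library 12, and the other 9 libraries in 2D had at most 13.3 CPM. MYO1A fell by 0.69 on the log2 scale (SE 0.26, edgeR adjusted p = 0.0322). Without WT 2D library 12 the value was -0.44 (adjusted p = 0.0804), and the call was also lost without WT monoculture 29, cl.21 2D 2, cl.21 monoculture 24, e.v. 2D 23, e.v. 2D 32 or e.v. monoculture 25, with log2 fold changes of -0.67 to -0.60. MYO1A shares its locus with TAC3 on the same strand, which held 1411 counts against 1421 for MYO1A. CDHR5 and USH1C, parts of the tip links, were not called, with log2 fold changes of 0.00 and 0.13.

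The digestive enzymes, low except for DPP4, were not called. SI, sucrase-isomaltase, had a log2 fold change of -0.18 (SE 0.20), LCT, lactase, -0.20 (SE 0.46), ALPI, intestinal alkaline phosphatase, -0.11 (SE 0.19), ANPEP, aminopeptidase N, -0.38 (SE 0.27) and DPP4, dipeptidyl peptidase 4, -0.05 (SE 0.18). DPP4 was the one enzyme at a high level, with 134 to 342 CPM in monoculture (median 201) and 178 to 333 CPM in 2D (median 221). ANPEP had 1.82 to 4.24 CPM in monoculture and 0.789 to 4.79 CPM in 2D. The 6 tested transporters ran from -0.39 for SLC5A1, the sodium-glucose cotransporter, to 0.36 for SLC2A2, the facilitative glucose carrier GLUT2, and none was called. ABCB1, the drug efflux pump, had 102 to 223 CPM in monoculture (median 148) and 79.8 to 192 CPM in 2D (median 127), with a log2 fold change of 0.23 (edgeR adjusted p = 0.152). RBP2, the intestinal retinol carrier, had 0.16.

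Of keratins and surface proteins, 0 of 7 were called in edgeR, and 0 had an unadjusted p under 0.05. DESeq2 called the same 11 members as edgeR in this comparison and no other. KRT18, a keratin of simple epithelia, had 419.5 to 1250.0 CPM in monoculture and 349.7 to 891 CPM in 2D (log2 fold change 0.33), and lies across from KRT8, which it pairs with. CEACAM5, a surface adhesion protein that is also a marker of colorectal tumours, had the widest spread between libraries in every WT group. TFF3, the trefoil peptide better known from goblet cells, had 10.1 to 39.8 CPM in monoculture and 8.68 to 31.4 CPM in 2D (log2 fold change 0.11).

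Taken line by line, fewer members passed. In cl.21 cells 1 member was called higher (10.1% of all genes were) and 3 lower (10.0% of all genes). These were PLS1 (log2 fold change 0.54, edgeR adjusted p = 0.0211), CDX2 (-0.92, 0.00788), GATA4 (-1.61, 0.00816) and LGR5 (-1.30, 0.00768). In e.v. cells 1 was called higher (10.3% of all genes) and 5 lower (11.3% of all genes): PLS1 (0.63, 0.00709), CDX2 (-0.83, 0.0154), HNF4A (-0.76, 0.0369), GATA4 (-1.61, 0.0189), GATA6 (-0.64, 0.0412) and LGR5 (-1.22, 0.0116). With 3 libraries a group, several of these rested on single libraries. In e.v. cells, leaving out 1 of the 6 libraries ended the call of CDX2, GATA4 and LGR5 for 2 libraries each, of HNF4A for 5 and of GATA6 for all 6, and in cl.21 cells that of GATA4 for 1 (2D 2, -1.37, adjusted p = 0.055) and of PLS1 for 4.

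In WT cells edgeR called 0 members in either direction, against 6.19% of all genes higher and 8.59% lower. An unadjusted p under 0.05 was found for 7 of 33 members and for 3628 of 12849 genes tested. LGR5 was called lower by DESeq2 (adjusted p = 0.0322). Other edgeR settings called up to 5 members lower here, with CDX2 (adjusted p = 0.0444) and LGR5 (0.0171) in a fit of the WT groups alone and LGR5 (0.0343) and GATA6 (0.0353) with mitochondrial share as a covariate. The WT log2 fold changes were -0.60 for CDX2 (edgeR adjusted p = 0.0755), -0.99 for LGR5 (0.0527), -0.61 for GATA4 (0.352) and -0.38 for HNF4A (0.316). The difference between lines in the monoculture effect was tested directly for cl.21 minus e.v., cl.21 minus WT and e.v. minus WT. In these tests edgeR and DESeq2 called 0 members and edgeR 0% of all genes in either direction, and 0 members had an unadjusted p under 0.05, so a difference between the lines in the response to monoculture was not detected. Of 12849 genes tested, 180, 531 and 439 had an unadjusted p under 0.05, in that order. The mitochondrial share moved with the culture, and with it as a covariate 10 of the 11 calls over the 3 lines were kept, ASCL2 being the exception, and KRT18 was called higher besides (0.57, adjusted p = 0.0149).

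The promoter windows of 3 members whose values recur through these results are printed because their letters hold, or lack, short motifs of intestinal factors. They run from 250 bases before the gene's start to 50 bases after it, come from RefSeq on GRCh38.p14, and read 5′ to 3′ on the gene's strand. Capitals mark TTTATG (a CDX site) or GCGTG (a core of the hypoxia response element), each searched on both strands, so that CACGC is the second motif read from the other strand. CDX2 lies at chr13:27969266-27969565 on the minus strand, SI at chr3:165078447-165078746 on the minus strand and SLC2A2 at chr3:171026671-171026970 on the minus strand.
CDX2: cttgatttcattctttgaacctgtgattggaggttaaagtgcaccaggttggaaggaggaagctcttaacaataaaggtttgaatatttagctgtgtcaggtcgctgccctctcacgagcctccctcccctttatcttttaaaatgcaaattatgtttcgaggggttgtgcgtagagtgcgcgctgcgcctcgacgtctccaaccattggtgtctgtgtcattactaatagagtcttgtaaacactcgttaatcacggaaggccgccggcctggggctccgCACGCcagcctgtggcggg
SI: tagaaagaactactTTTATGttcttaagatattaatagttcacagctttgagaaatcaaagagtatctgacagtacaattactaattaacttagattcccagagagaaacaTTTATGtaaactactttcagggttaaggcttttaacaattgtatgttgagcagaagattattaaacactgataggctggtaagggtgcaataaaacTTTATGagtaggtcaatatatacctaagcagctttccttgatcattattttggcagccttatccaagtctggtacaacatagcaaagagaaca
SLC2A2: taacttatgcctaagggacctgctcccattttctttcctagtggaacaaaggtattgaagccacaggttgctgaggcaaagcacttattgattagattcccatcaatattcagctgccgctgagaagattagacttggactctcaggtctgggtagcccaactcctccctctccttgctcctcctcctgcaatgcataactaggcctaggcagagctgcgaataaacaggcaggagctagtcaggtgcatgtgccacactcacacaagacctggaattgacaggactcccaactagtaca
The CDX2 window held 1 GCGTG and the SI window 3 TTTATG. The SLC2A2 window held none of the motifs searched.

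Windows were found for 32 of the 44 members, 41 windows in all. CAAAGT, a half-site of HNF4 factors, was in 13 of 41 windows (31.7%), against 11.9% of 35116 windows of all genes. TTTATG was in 5 of 41 (12.2%), against 10.6% of all windows. The hypoxia response element cores were no more frequent than in all windows, with ACGTG in 7 of 41 (17.1%, against 21.4%) and GCGTG in 14 of 41 (34.1%, against 36.5%). These are matches of letters, and no binding was measured.

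Co-culture with F. prausnitzii was set against HoxBan monoculture to see what the bacterium added, and the monoculture libraries are shared with the comparison above. Averaged over the lines, edgeR called 0 of 33 members in either direction, where 0.817% of all genes were called higher and 1.18% lower. DESeq2 also called 0 members. In edgeR an unadjusted p under 0.05 was found for 2374 of all 12849 genes tested, and for 5 of the 33 members. Their log2 fold changes were -0.44 for CDX2 (SE 0.14, adjusted p = 0.0894), 0.31 for EZR (SE 0.10, 0.0994), 0.40 for ABCB1 (SE 0.13, 0.101), -0.36 for HNF4A (SE 0.15, 0.191) and -0.78 for GATA4 (SE 0.33, 0.203). CDX2 crossed the threshold without e.v. co-culture 14 (-0.53, adjusted p = 0.0252), WT co-culture 28 (-0.55, 0.0202) or e.v. monoculture 25 (-0.51, 0.0421), as did EZR without the first (0.36, 0.0309) or the second (0.35, 0.0492) and ABCB1 without the first (0.48, 0.0178).

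CDX2 had 80.7, 71.5 and 80.8 CPM in co-culture in cl.21 cells, against 90.8, 93.5 and 95.8 CPM in monoculture. In e.v. cells it had 73.2, 51.7 and 37.4 CPM in co-culture, against 109, 102 and 61.8 CPM in monoculture. WT libraries had 89.5, 72.0 and 144 CPM in co-culture, against 136, 157 and 95.5 CPM in monoculture. The cultures did not overlap in cl.21 cells and overlapped in e.v. and WT cells. HNF4A had 60.6 to 140.1 CPM in co-culture (median 71.7), against 64.2 to 159 CPM in monoculture (median 109). GATA4 had 0.237 to 2.24 CPM in co-culture (median 0.926), against 0.404 to 2.83 CPM in monoculture (median 2.06).

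EZR had 318 to 498 CPM in co-culture (median 367), against 242 to 409.5 CPM in monoculture (median 299.5). ABCB1 had 125 to 249.9 CPM in co-culture (median 193), against 102 to 223 CPM in monoculture (median 148). ABCB1 overlapped between the cultures in every line, and EZR in e.v. and WT cells but not in cl.21 cells. The standard errors of the 33 members ran from 0.087 to 0.60 on the log2 scale (median 0.22), which sets what size of change these libraries could show. Within single lines edgeR and DESeq2 called 0 members in cl.21, e.v. and WT cells, where edgeR called 0% of all genes in either direction. At an unadjusted p under 0.05 there were 0 members in cl.21 cells, 1 in e.v. cells and 1 in WT cells. Of 12849 genes tested there were 908, 791 and 555, in that order. The co-culture effect of cl.21 minus that of e.v. gave 0 calls by edgeR and by DESeq2, and 0% of all genes in edgeR. It gave 0 members and 169 of 12849 genes tested at an unadjusted p under 0.05.

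The lines differed more, and in few genes. cl.21 cells were set against e.v. cells, and both were set against WT cells. With 1 clone, the first comparison cannot tell loss of HIF1A from what else the clone carried. HIF1A itself, counted at its 3′ end, had 90.3, 84.9 and 86.2 CPM in 2D in cl.21 cells, 154, 180.4 and 147 CPM in e.v. cells and 129, 167, 143 and 142 CPM in WT cells. In HoxBan, it had 137 to 210.1 CPM in cl.21 cells, 190.2 to 355 CPM in e.v. cells and 160.0 to 215 CPM in WT cells. A 3′ tag does not read the edited site, so these values do not check the labels. The transcript was lower in cl.21 than in e.v. cells by 0.89 on the log2 scale in 2D (edgeR adjusted p = 0.00972) and by 0.61 in HoxBan (0.00395). By RT-PCR in another experiment, the study reported no significant difference in HIF1A mRNA between its HIF1A-null and empty vector cells.

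SLC2A2 separated the e.v. cells from both other lines. In 2D it had 4.72, 5.87 and 3.04 CPM in cl.21 cells, 16.7, 36.7 and 21 CPM in e.v. cells and 2.75, 4.42, 2.03 and 0.961 CPM in WT cells. In monoculture it had 9.81, 2.31 and 7.88 CPM in cl.21 cells, 13.1, 32.9 and 30.2 CPM in e.v. cells and 1.45, 4.00 and 5.70 CPM in WT cells. In co-culture the values were 8.26, 1.81 and 8.70 CPM in cl.21 cells, 38.9, 34.2 and 14.1 CPM in e.v. cells and 1.84, 4.78 and 3.47 CPM in WT cells. In every culture all e.v. libraries lay above all libraries of the other lines, whose values overlapped each other.

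In HoxBan (the mean of monoculture and co-culture), SLC2A2 was lower in cl.21 than in e.v. cells, with a log2 fold change of -2.03 (SE 0.37, edgeR adjusted p = 0.000902). It was higher in e.v. than in WT cells, at 2.95 (SE 0.40, 2.99e-05). In 2D the same differences were -2.45 (SE 0.52, 0.0115) and 3.24 (SE 0.51, 0.000753). Between cl.21 and WT cells SLC2A2 was not called in either setting. Without the filter on low counts, edgeR called it higher in cl.21 than in WT cells in HoxBan (0.92, adjusted p = 0.0042). The comparisons of e.v. cells with cl.21 and with WT cells share the e.v. libraries.

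SI went the other way in HoxBan. In monoculture it had 15.8, 11.1 and 10.9 CPM in cl.21 cells, 4.24, 6.72 and 3.54 CPM in e.v. cells and 7.99, 16.7 and 12.6 CPM in WT cells. In co-culture it had 10.7, 11.9 and 21.6 CPM in cl.21 cells, 5.06, 8.54 and 4.70 CPM in e.v. cells and 8.58, 17.1 and 18.5 CPM in WT cells. All HoxBan libraries of e.v. cells lay below all those of cl.21 cells, and overlapped those of WT cells at 1 value each. SI was higher in cl.21 than in e.v. cells by a log2 fold change of 1.34 (SE 0.27, edgeR adjusted p = 0.00225). In e.v. against WT cells it was -1.31 (SE 0.27, 0.00241). In 2D, where SI had 9.90, 15.1 and 9.59 CPM in cl.21 cells, 6.52, 8.34 and 8.85 CPM in e.v. cells and 12.1, 9.31, 17.9 and 7.30 CPM in WT cells, it was not called between any lines.

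**Figure D3:**
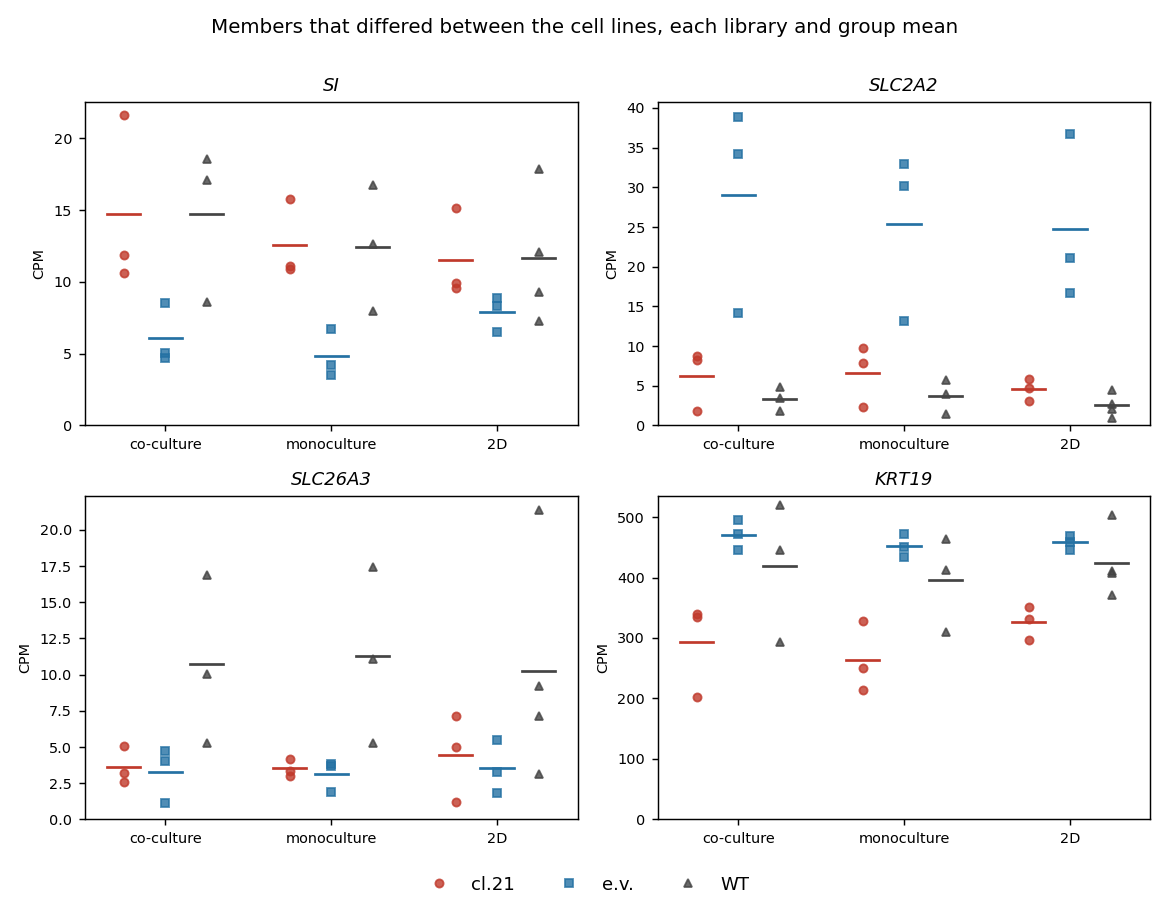
CPM of SI, SLC2A2, SLC26A3 and KRT19 in each library, by culture (co-culture, monoculture, 2D) and line (red circles cl.21, blue squares e.v., grey triangles WT), with bars at group means. SLC2A2 was highest in all 9 e.v. libraries, at 13.1 to 38.9 CPM, and KRT19 was lowest in cl.21 cells in each culture on average.

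KRT19, a keratin of simple epithelia, was the remaining difference of cl.21 cells that held when any 1 library was left out. In 2D it had 296, 331 and 351 CPM in cl.21 cells, 459, 445 and 469.5 CPM in e.v. cells and 408, 411, 370.4 and 504 CPM in WT cells. In monoculture it had 250.3, 327 and 213 CPM in cl.21 cells, 472, 450.1 and 434 CPM in e.v. cells and 463, 310.1 and 413 CPM in WT cells. In co-culture the values were 203, 335 and 340.1 CPM in cl.21 cells, 496, 446 and 471 CPM in e.v. cells and 519.5, 445 and 294 CPM in WT cells. All cl.21 libraries lay below all e.v. libraries, and overlapped those of WT cells in HoxBan but not in 2D. In HoxBan KRT19 was lower in cl.21 than in e.v. cells (log2 fold change -0.72, SE 0.14, edgeR adjusted p = 0.00162) and than in WT cells (-0.54, SE 0.14, 0.0115), the call against WT being lost in a fit of only the groups compared (-0.53, 0.0974).

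Counted over all members, cl.21 against e.v. in HoxBan gave 1 member higher (SI) and 3 lower (SLC2A2, PLS1 and KRT19), where 2.84% of all genes were called higher and 2.72% lower. PLS1 had 41.2 to 54.3 CPM in cl.21 cells and 54.3 to 74.7 CPM in e.v. cells (log2 fold change -0.39, edgeR adjusted p = 0.0436). The PLS1 call was lost when any 1 of 8 of the 12 libraries was left out, with values of -0.40 to -0.35 among those. In 2D there were 0 higher (0.537% of all genes) and 1 lower, SLC2A2 (0.467%). In monoculture there were 0 higher (0.545%) and 1 lower, KRT19 (0.576%), with a log2 fold change of -0.78 (adjusted p = 0.0457). In co-culture there were 0 higher (0.506%) and 1 lower, SLC2A2 (0.662%), with a log2 fold change of -2.18 (adjusted p = 0.0382). DESeq2 also called SI higher in monoculture (1.38, adjusted p = 0.0295) and in co-culture (1.29, 0.0458), where edgeR had an adjusted p of 0.0813 in monoculture and 0.105 in co-culture. Leaving out 1 of the 6 libraries ended the SLC2A2 call for 3 libraries in 2D and 5 in co-culture, and the KRT19 call for 5 in monoculture, while the SLC2A2, SI and KRT19 calls in HoxBan held without any 1 of the 12. Just outside the threshold in HoxBan were ABCC2, an efflux pump of conjugates (0.76, edgeR adjusted p = 0.0533, and 0.0294 in DESeq2), and ALPI (0.80, 0.0741).

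e.v. cells against WT cells in HoxBan gave 2 members higher (SLC2A2 and PLS1), where 6.09% of all genes were, and 4 lower (SI, SLC26A3, CDX2 and HNF4A), where 4.90% of all genes were. DESeq2 added LCT (log2 fold change -1.75, adjusted p = 0.0200), SLC15A1 (-1.05, 0.0373) and USH1C (-0.37, 0.0450) as lower. It also added LGR5 (0.83, 0.0249) as higher. SLC26A3, the chloride-bicarbonate exchanger of the colon, had 3.84, 3.71 and 1.89 CPM in monoculture in e.v. cells, against 11.1, 17.4 and 5.29 CPM in WT cells. In co-culture it had 1.15, 4.03 and 4.70 CPM in e.v. cells, against 10.0, 5.29 and 16.9 CPM in WT cells. All 6 e.v. libraries lay below all 6 WT libraries, with a log2 fold change of -1.76 (SE 0.44, edgeR adjusted p = 0.0109).

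CDX2 had 37.4 to 109 CPM in HoxBan in e.v. cells (median 67.5), against 72.0 to 157 CPM in WT cells (median 116), a log2 fold change of -0.71 (SE 0.17, edgeR adjusted p = 0.00871). HNF4A had 60.6 to 117 CPM in e.v. cells (median 64.7), against 70.7 to 159 CPM in WT cells (median 121), a log2 fold change of -0.64 (SE 0.19, 0.025). Both ranges overlapped, and the HNF4A call was lost when any 1 of 6 libraries was left out (e.v. monoculture 15 or 25, e.v. co-culture 18, WT monoculture 16 or 19 or WT co-culture 28), with values of -0.64 to -0.51. PLS1 had 54.3 to 74.7 CPM in e.v. cells and 35.2 to 56.5 CPM in WT cells (0.37, edgeR adjusted p = 0.037), a call lost in 8 of 12 such fits. In 2D, e.v. against WT cells gave 1 member higher, SLC2A2 (0.809% of all genes), and 0 lower (0.467%), and DESeq2 added ABCB1 as higher and KRT20 as lower.

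cl.21 cells against WT cells in HoxBan gave 2 members higher (ABCB1 and ABCC2), where 6.62% of all genes were, and 4 lower (SLC26A3, USH1C, KRT19 and KRT20), where 4.73% of all genes were. DESeq2 added LCT (log2 fold change -1.63, adjusted p = 0.0308) and VIL1 (-0.30, 0.0459) as lower. SLC26A3 had 4.18, 3.01 and 3.38 CPM in monoculture and 5.06, 2.58 and 3.23 CPM in co-culture in cl.21 cells, all below the 6 WT libraries given above (log2 fold change -1.59, SE 0.44, edgeR adjusted p = 0.0182). Without WT monoculture 19 it was -1.37 (adjusted p = 0.0504), and without WT co-culture 28 it was -1.36 (0.0534). ABCB1 had 124 to 249.9 CPM in cl.21 cells (median 208) and 102 to 193 CPM in WT cells (median 126), a log2 fold change of 0.54 (adjusted p = 0.0318). ABCC2 had 36.6 to 91.6 CPM in cl.21 cells and 24.7 to 53.5 CPM in WT cells (0.70, 0.0498).

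USH1C, harmonin, the scaffold of the tip link complex, had 72.5 to 102 CPM in cl.21 cells and 101 to 149 CPM in WT cells (log2 fold change -0.41, edgeR adjusted p = 0.0372). KRT20, a keratin of mature intestinal cells, had 0.516 to 1.99 CPM in cl.21 cells and 0.755 to 6.54 CPM in WT cells (-1.99, 0.0451). The calls of ABCB1, ABCC2, USH1C and KRT20 were each lost when any 1 of 6 to 8 of the 12 libraries was left out. In 2D edgeR called 0 members higher (0.677% of all genes) and 0 lower (0.786%). An unadjusted p under 0.05 was found for 6 of 33 members and for 1237 of 12849 genes tested. ABCB1 was called higher by DESeq2 (0.78, adjusted p = 0.0351).

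**Figure D4:**
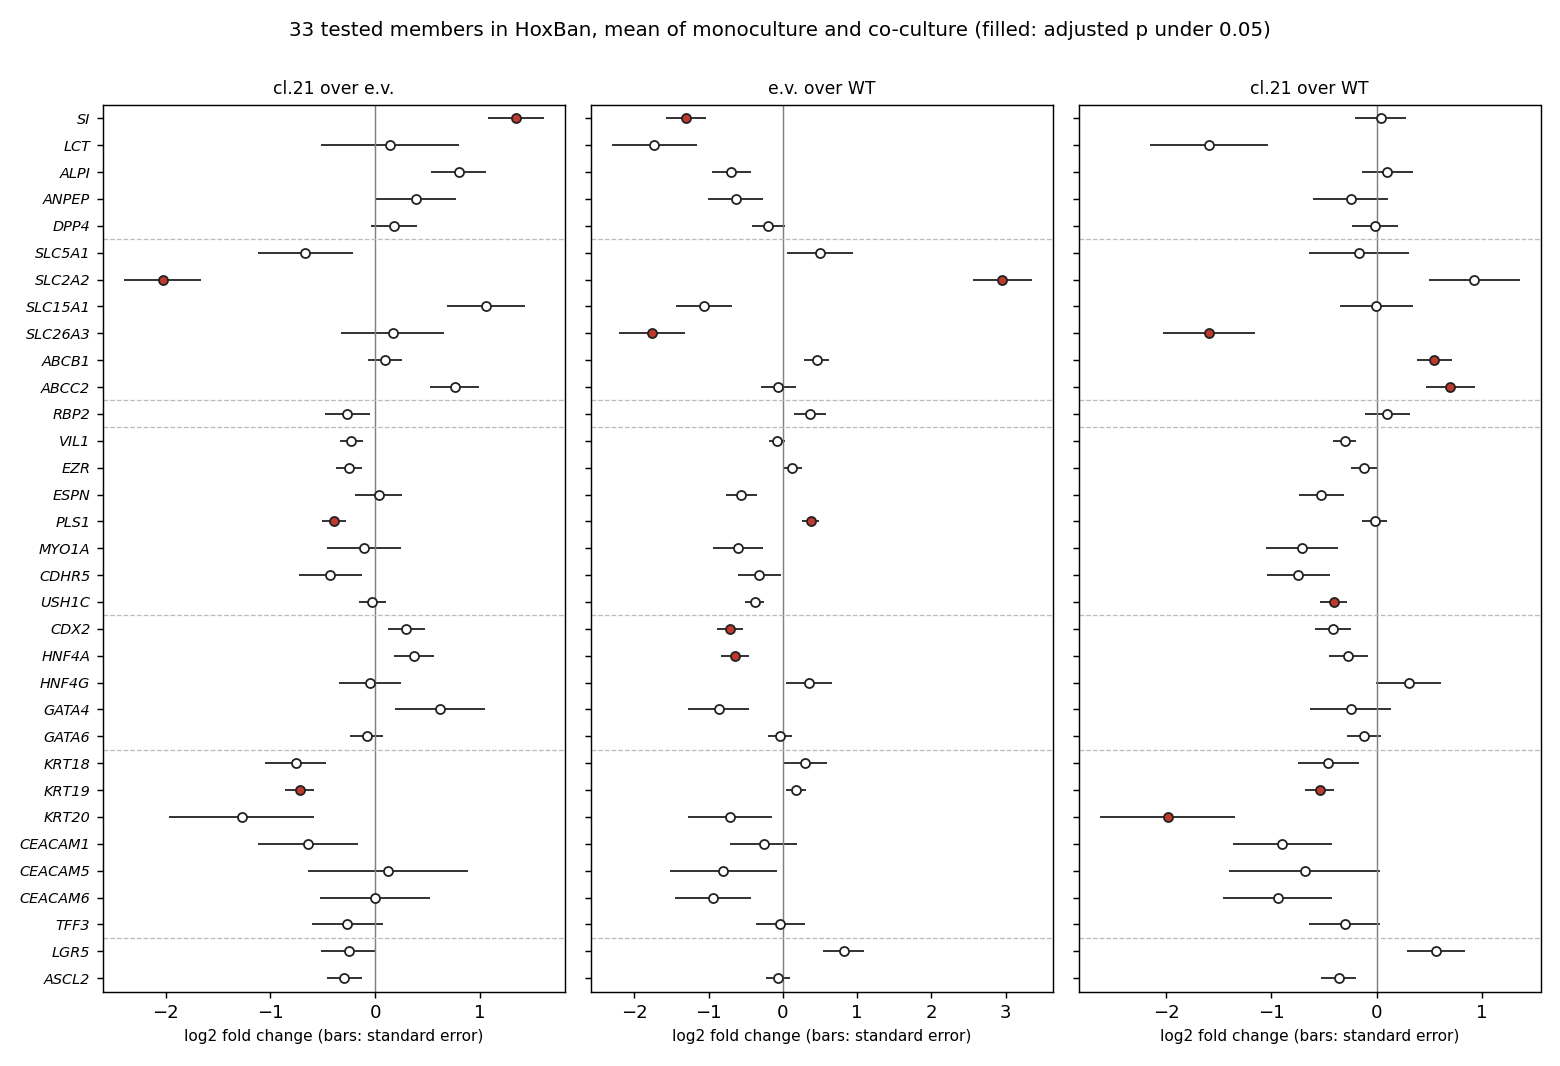
Log2 fold change of the 33 tested genes in HoxBan (the mean of monoculture and co-culture) for cl.21 over e.v., e.v. over WT and cl.21 over WT. Bars are standard errors and filled points passed an adjusted p of 0.05 in edgeR; SLC2A2 lay at -2.03 for cl.21 over e.v. and at 2.95 for e.v. over WT, and the panels share libraries pairwise.

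Among summed marker lists of other cell types, only the Paneth list set 1 line apart from both others. Fibroblast and endothelium genes overlapped between all lines, at 57.4 to 86.5 CPM in cl.21 cells, 54.3 to 116 CPM in e.v. cells and 35.5 to 88.2 CPM in WT cells. Enteroendocrine and tuft cell lists also overlapped. The immune list, which shares LYZ, had 8.79 to 27.2 CPM in cl.21 cells, 26.4 to 50.6 CPM in e.v. cells and 12.0 to 24.4 CPM in WT cells. The summed level of 6 Paneth cell genes was 6.24 to 20.6 CPM in cl.21 cells, 27.5 to 51.8 CPM in e.v. cells and 7.53 to 17.6 CPM in WT cells over all cultures, and LYZ and PRSS2 were its 2 tested genes, with 1 count of the defining DEFA5. Among 8 goblet cell genes, nearly all of the sum was AGR2, at 111 to 295 CPM for the list in cl.21 cells, 158 to 675 CPM in e.v. cells and 354 to 1309 CPM in WT cells, with MUC2, ATOH1 and SPDEF at 6, 4 and 5 counts in 28 libraries. A list of 7 genes that mixes markers of colonocytes and of small intestine summed to 43.3 to 111 CPM in cl.21 cells, 67.4 to 146 CPM in e.v. cells and 79.4 to 337 CPM in WT cells, and most of it was the small intestinal gene APOC3, at 37.1 to 310.4 CPM over the 28 libraries, against at most 21.4 CPM for SLC26A3. Their part in the differences between lines was not tested.

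Other genes of the same programme were read from 5 lists of 92 genes, 67 of which were tested. In HoxBan monoculture against 2D, 10 were called higher, where 21.4% of all genes were, and 21 lower, where 23.3% of all genes were. Of 13 other regulators of enterocyte fate, 4 rose (KLF4, KLF5, ELF3 and HES1) and 6 fell, MAF, ISX, BMP4 and SMAD4 among them. Of 18 other apical and microvillus proteins, 1 rose (MYO6) and 7 fell, and of 13 other crypt and WNT genes, 2 rose and 5 fell. Of 17 other transporters, 3 rose and 2 fell, and of 6 other enzymes, CES2 fell.

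ELF3, an epithelial ETS factor, had 139.5, 135 and 141 CPM in monoculture in cl.21 cells, against 57.1, 62.6 and 45.5 CPM in 2D, and a log2 fold change of 1.08 over the lines (edgeR adjusted p = 1.15e-06). The fall of CDX2, HNF4A and GATA factors was accompanied by rises in other epithelial factors. CES2, a carboxylesterase, fell by 0.72 on the log2 scale (7.05e-07), and SLC7A7, a basolateral amino acid transporter subunit, rose by 0.64 (6.61e-07). In co-culture against monoculture, where 0.817% of all genes were higher and 1.18% lower, edgeR called 0 of 67. At an unadjusted p under 0.05 there were 9 of the 67, and 2374 of 12849 genes tested.

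Between the lines in HoxBan, 0 of the 67 were higher (2.84% of all genes) and 5 lower (2.72%) in cl.21 than in e.v. cells. An unadjusted p under 0.05 was found for 2351 of 12849 genes tested and for 17 of the 67. In e.v. against WT cells 8 were higher (6.09%) and 6 lower (4.90%), and in cl.21 against WT cells 3 were higher (6.62%) and 7 lower (4.73%). In 2D, 2 were higher (0.809%) and 0 lower (0.467%) in e.v. than in WT cells, and 0 were higher (0.677%) and 1 lower (0.786%) in cl.21 than in WT cells. At an unadjusted p under 0.05 there were 12 of the 67 in each. Of 12849 genes tested there were 1426 for e.v. against WT and 1237 for cl.21 against WT. CD44, a WNT target and hyaluronan receptor, had 28.1, 35.2 and 46.2 CPM in monoculture in e.v. cells, against 14.7, 6.36 and 6.11 CPM in WT cells, and its log2 fold change in HoxBan was 1.91 for e.v. against WT (edgeR adjusted p = 2.23e-06). It was -0.74 for cl.21 against e.v. (0.0276) and 1.17 for cl.21 against WT (0.000963). Of 13 crypt and WNT genes, 5 were higher in e.v. than in WT cells in HoxBan (AXIN2, EPHB2, CD44, NKD1 and SP5), where 6.09% of all genes were, and 1 (PROM1) was lower, where 4.90% were, while LGR5 differed by 0.82 on the log2 scale without being called (edgeR adjusted p = 0.0518, and 0.0249 in DESeq2).

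TM4SF5, a tetraspan protein of the apical surface, had 15, 16.2 and 20.8 CPM in monoculture in cl.21 cells, 36.9, 35.9 and 31.4 CPM in e.v. cells and 34.9, 47.8 and 29.3 CPM in WT cells. It was lower in cl.21 cells than in e.v. cells (log2 fold change -1.02, edgeR adjusted p = 0.000432) and than in WT cells (-1.12, 0.000129) in HoxBan. STX3, the syntaxin of apical traffic, was lower in cl.21 than in e.v. cells (-0.61, 0.00456) and higher in e.v. than in WT cells (0.63, 0.00267).

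Spread within groups was wide for part of the list. In each group, 10 to 16 of the 33 members differed by more than 2-fold between the highest and the lowest library, and CEACAM5 differed by 31.1-fold in WT cells in 2D, 16.8-fold in co-culture and 9.03-fold in monoculture. WT 2D library 12 was behind the first of these, with 44.2 CPM against 1.42 to 3.46 CPM in the other 3 libraries. The same library had 132 CPM of CEACAM6 (14.7 to 29.0 CPM in the other 3), 14.5 CPM of KRT20, 10.9 CPM of LCT and 34.8 CPM of CEACAM1, which is 10.8, 6.88 and 5.66 times the median of the other 3 for KRT20, LCT and CEACAM1. It was the highest of the 4 for 18 of the 33 members, and 14.1% of its counts were mitochondrial, against 4.94% to 6.30% in the other 3. Reads of CEACAM1, CEACAM5 and CEACAM6, close paralogs, could be split by the counting, as could those of ALPI and ALPP.

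**Figure D5:**
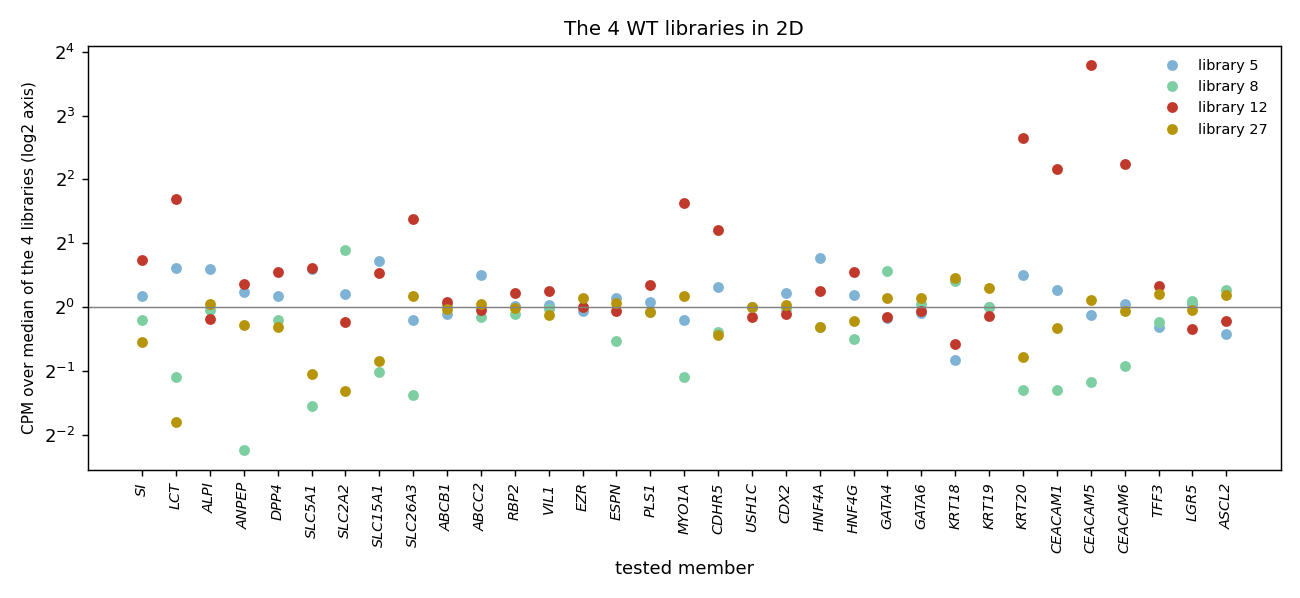
CPM of the tested genes in the 4 WT libraries in 2D (5, 8, 12 and 27), each over the median of the 4, on a log2 axis. Library 12 stands apart for the CEACAM genes, KRT20, LCT and MYO1A, with CEACAM5 at 15.1 times the median of the other 3.

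The 4 single WT libraries were set beside the range of the 3 WT monoculture libraries, with no test since each condition had 1 library. A range of 3 libraries is narrow, so a value outside it need not mark a difference. The same count was not made over all genes, so the counts of members below have no background beside them. Monoculture with YCFAinul had 4 of 33 members above that range, 8 below and 21 within. The counts were 3, 9 and 21 for monoculture with YCFAmuc, 2, 12 and 19 for Poop + YCFAinul, and 2, 10 and 21 for Poop + YCFAmuc. LCT lay below in all 4, at 1.16, 1.58, 0.901 and 1.41 CPM in that order, against 1.83 to 13.0 CPM in WT monoculture. VIL1, at 295 to 306 CPM against 315 to 356 CPM, ASCL2, at 13.9 to 16.7 CPM against 18.9 to 20.2 CPM, and TFF3 were also below in all 4. LGR5 was above in both libraries with Poop, at 9.55 and 14.5 CPM against 4.95 to 6.90 CPM, and SI was below in monoculture with YCFAmuc (6.98 CPM), Poop + YCFAinul (6.66 CPM) and Poop + YCFAmuc (4.46 CPM), against 7.99 to 16.7 CPM.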

How the data were processed

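The counts of QuantSeq 3′ reads per Ensembl gene in the 32 libraries were used as the authors deposited them. The submitters' processing notes name the build GRCh38, while how the reads were aligned and counted (tool, strand, annotation) is not given in the sources used here. Symbols were matched through a table of Ensembl identifiers and GENCODE 29. The 28 libraries of 9 groups were fitted together in edgeR 4.0.16 (R 4.3.3) with TMM factors, filterByExpr, a group-means design and the quasi-likelihood test, on 12849 genes with 19 residual degrees of freedom and a biological coefficient of variation of 0.201. All p-values are two-sided, with Benjamini-Hochberg adjustment over every gene tested and a threshold of 0.05. Standard errors are the log2 fold change over the root of the test statistic. CPM used TMM factors over all 32 libraries.

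Alternatives were DESeq2 1.42.0 size factors, upper-quartile factors, no filter, the DESeq2 Wald test, a fit of only the groups compared, mitochondrial share as a covariate, and leaving out each library. The scripts were tested on simulated counts. Other genes of the programme were named by a rule, up to 4 a comparison with the smallest adjusted p among those called at a mean of at least 5 CPM, less results that are not reported here. Members and lists were chosen with earlier results of these data known. The 4 single libraries entered no test.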

Additional observations from a re-analysis of the deposited data

Results flagged for a closer look

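In the WT group in 2D, the only group of more than 3 libraries, 33 members were checked for a library far from the other 3 by Dixon's criterion, which chance meets in about 1 of 20 groups. It was met by 3 members. CEACAM5 had 44.2 CPM in library 12, against 1.42 to 3.46 CPM in the others, and CEACAM6 had 132 CPM in the same library, against 14.7 to 29.0 CPM. USH1C had 86.9 CPM in library 12, against 96.7 to 97.1 CPM in the others, a small gap beside a very narrow range. The share of mitochondrial counts in library 12 was 14.1%, against 4.94% to 6.30% in the other 3, and its part in these values was not tested.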

How the results depend on the processing

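Among 41 calls of a member in a comparison, 18 held under every alternative and 0 of 732 alternative values turned the direction. Of the 11 calls in HoxBan monoculture against 2D over the lines, CDX2, ESPN, EZR, GATA4, GATA6, HNF4A, LGR5 and PLS1 held without any 1 library. Counts of members called moved in the following comparisons, and the cause was not tested. In co-culture against monoculture, edgeR without the filter on low counts called ABCB1 higher (1) and CDX2 lower (1), and the mitochondrial covariate called GATA6 lower (1), against 0 and 0. For cl.21 against e.v. in 2D, no filter gave 1 higher and a fit of only the groups compared 2 lower, and in HoxBan 2 were higher with upper-quartile factors, the covariate, the groups compared alone or DESeq2 and 3 with no filter. For e.v. against WT in 2D, no filter gave 3 higher and 6 lower, the groups compared alone 2 higher, and DESeq2 2 higher and 1 lower. In HoxBan the same lines had 9 lower with no filter, 7 lower with DESeq2, and 1 higher and 2 lower with the groups compared alone, where CDX2 (edgeR adjusted p = 0.0687), HNF4A and PLS1 were not called. For cl.21 against WT in 2D, no filter gave 2 higher and 5 lower, the covariate 1 higher, the groups compared alone 2 higher and DESeq2 1 higher, and in HoxBan no filter gave 9 lower and the groups compared alone 0 higher and 2 lower. For cl.21 against e.v. in single HoxBan cultures, where 0 were higher, DESeq2 called SI higher in monoculture and in co-culture, and the covariate called it in monoculture (adjusted p = 0.0366). In WT monoculture against 2D, where 0 were lower, no filter called MYO1A, CDX2, CEACAM5, CEACAM6 and LGR5 lower.

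Leaving out 1 library at a time gave 2 to 2 members higher and 7 to 9 lower in HoxBan monoculture against 2D, and 0 to 2 higher and 0 to 1 lower in co-culture against monoculture. For cl.21 against e.v. it gave 0 to 0 higher and 0 to 1 lower in 2D, and 1 to 2 higher and 2 to 3 lower in HoxBan. For e.v. against WT it gave 1 to 1 higher and 0 to 0 lower in 2D, and 1 to 3 higher and 3 to 6 lower in HoxBan. For cl.21 against WT it gave 0 to 0 higher and 0 to 0 lower in 2D, and 0 to 2 higher and 2 to 7 lower in HoxBan.

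Counts over all genes moved more. In co-culture against monoculture over the lines, 105 genes were higher and 151 lower, against 165 and 317 with no filter, 673 and 741 with the covariate, 8 and 10 with the groups compared alone and 285 and 318 in DESeq2. For cl.21 against e.v. in HoxBan, 365 and 349 became 589 and 511 with the covariate and 189 and 215 with the groups compared alone. In 2D, 69 and 60 became 151 and 167 with no filter, 190 and 209 with the groups compared alone and 107 and 87 in DESeq2. For e.v. against WT, 782 and 629 in HoxBan became 352 and 201 with the groups compared alone, and 104 and 60 in 2D became 220 and 189 with no filter, 139 and 95 with the covariate and 152 and 102 in DESeq2. For cl.21 against WT, 851 and 608 in HoxBan became 495 and 288 with the groups compared alone, and 87 and 101 in 2D became 192 and 260 with no filter, 129 and 154 with the covariate and 121 and 160 in DESeq2. For cl.21 against e.v., 70 and 74 in monoculture became 143 and 164 with no filter, 141 and 115 with the covariate and 4 and 11 with the groups compared alone, and 65 and 85 in co-culture became 109 and 182, 91 and 138, and 31 and 71 in that order, with 88 and 135 in DESeq2. In WT monoculture against 2D, 795 and 1104 became 1255 and 1658 with the covariate. Where edgeR called 0 genes in either direction (co-culture in single lines and differences between lines in an effect), no filter gave at most 28 higher and 22 lower, the covariate at most 6 and 8, and DESeq2 at most 3 and 1. Depth limits the 11 members below the filter, of which CDHR2 alone was called in any comparison with no filter. Of simulated 2-fold changes on 12849 genes, 55% were called for cl.21 against e.v. in 2D and 85% for HoxBan monoculture against 2D over the lines. No paired analysis was possible because the replicate numbers are library numbers that no 2 groups share.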
